A study of Homo sapiens with 28 samples.

Results

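The genes of fatty acid oxidation and ketone body metabolism were followed in tumours that 4 human hepatoma lines formed on the chick embryo (in ovo) and in cultures of the same lines (in vitro). The 32 genes were taken by symbol from the 18961 amplicons of a targeted expression panel: 4 acyl-CoA synthetases, 5 genes of the carnitine shuttle, 15 genes of mitochondrial beta oxidation and electron transfer, 5 peroxisomal genes and 3 genes of ketone bodies. All 32 were found and 31 passed the filter on low values. The groups were HepG2, Hep3B, HuH7 and PLC/PRF/5 tumours in ovo, with 4 libraries each, and cultures of the same lines in vitro, with 3 libraries each. HepG2 is known as a hepatoblastoma line and the other three came from hepatocellular carcinoma. No treatment, gene edit or transgene is named for any group. Cells of these hepatoma lines were placed on embryonic day 9 on the chorioallantoic membrane of chicken eggs (white leghorn), and on day 18 the nodules were collected. RNA was purified on midi columns from tumours and on mini columns from cultures, so the column kit and the growth condition cannot be told apart. Each library started from 500 ng of total RNA. No label says whether libraries of 1 group came from separate eggs or cultures, so the p-values rest on library-to-library spread that could be technical.

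Fatty acids are first activated to acyl-CoA, and the carnitine shuttle then carries long chains across the mitochondrial membranes. Repeated rounds of dehydrogenation, hydration, a further dehydrogenation and thiolysis shorten the chain to acetyl-CoA, while peroxisomes begin the breakdown of very long and branched chains. In the fasted liver much of that acetyl-CoA becomes ketone bodies, which hepatocytes release and other tissues burn, and the nuclear receptor PPAR-alpha is a main activator of the whole programme.

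Depth was 6085750 to 15086465 reads in ovo and 6205368 to 8662998 reads in vitro, and 3 reads stood for 0.199 to 0.493 CPM in ovo and 0.346 to 0.483 CPM in vitro before scaling. Levels below are in CPM (the usual depth-scaled read count) after TMM scaling between libraries. Each of the 10 hepatocyte markers measured, such as ALB and APOA1, exceeded 3 reads in some library of each condition. The marker sums that follow are in CPM before TMM scaling. Of 6 endothelial markers, KDR, TEK and ERG did not exceed 3 reads in any library, and the 6 summed to 3.162 to 53.2 CPM in ovo, against 0.322 to 28.6 CPM in vitro. The 7 fibroblast markers summed to 3.065 to 935 CPM in ovo, against 20.05 to 444 CPM in vitro. The 6 leukocyte markers, of which CD3E did not exceed 3 reads, summed to 4.515 to 69.7 CPM in ovo, against 34.5 to 432 CPM in vitro. Their part in the results was not tested. ALAS2, an erythroid marker, had no read in either condition. A median of 23.5% of 392 olfactory receptor amplicons had a read in ovo (range 5.61% to 51.8%), against 3.7% in vitro (2.04% to 7.91%). In HepG2, Hep3B and HuH7 the in ovo library numbered 3 was the lowest of its group: its median log2 difference from the other in ovo libraries of the line over the 31 genes was -0.443 in HuH7, -0.395 in Hep3B and -0.301 in HepG2. Over all genes tested the same medians were -0.159, -0.148 and -0.0714, in that order of lines. In PLC/PRF/5 library 3 was at -0.0734 and library 4 stood farther off, at 0.24. Hep3B library 4 was at 0.326. Counts of the 31 genes that rose or fell per line, in the mean and in at least 3 lines are also given without the 4 in ovo libraries numbered 3. In bulk RNA, fewer cells of a type and less RNA per cell cannot be told apart.

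The acyl-CoA synthetases ACSL1, ACSL3 and ACSL4 fell in ovo in HepG2, Hep3B and HuH7, and the mitochondrial thiolase ACAA2 and the flavoprotein subunit ETFA each fell in 3 lines. The peroxisomal thiolase ACAA1 and the ketone body enzyme BDH1 each rose in 3 lines, and the balance differed between lines. In HepG2, 7 of the 31 genes tested rose in ovo, against 12.1% of all 13100 genes tested, and 3 fell, against 13.0%. In Hep3B, 10 rose (24.6% of all genes) and 12 fell (27.4%). In HuH7, 2 rose (23.6% of all genes) and 16 fell (19.8%). In PLC/PRF/5, 1 rose (11.9% of all genes) and 6 fell (5.61%). A gene was called where limma's adjusted p over all genes tested was under 0.05. Scaled by the total per library in place of TMM, 2 genes rose and 4 fell in HepG2, and 4 rose and 16 fell in Hep3B.

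The median log2 fold change in ovo over in vitro was 0.05 for the 31 genes and -0.01 for all genes tested in HepG2, and in Hep3B -0.14 and -0.05. HuH7 had -0.67 for the 31 genes and 0.01 for all genes, and PLC/PRF/5 -0.39 and 0.07. Without the in ovo libraries numbered 3, the counts of genes that rose and fell were 1 and 15 in PLC/PRF/5, 4 and 18 in HuH7, 11 and 12 in Hep3B, and 8 and 3 in HepG2, with 8 and 16 in the mean over lines. The residual spread of a gene is shared by all 8 groups. Libraries left out of the other lines therefore also bear on the calls in PLC/PRF/5. Shares of all genes were computed for the main fit alone, so counts under any other setting cannot be set against them. ACAA1 and BDH1 rose in 3 of the 4 lines, as did 7.55% of all genes in at least 3 lines. With each line fitted alone 0 genes rose in 3 lines, and without the GC and length trend described below BDH1 alone did, as did ACAA1 alone with the total per library. ACAA2, ACSL1, ACSL3, ACSL4, ETFA, HSD17B4 and SLC25A20 fell in 3 of the 4 lines, against 4.55% of all genes, but without the GC and length trend only 2 of these 7 did, ACSL3 and ACSL4. Without the in ovo libraries numbered 3, 3 genes rose and 8 fell in at least 3 lines, CROT and HADHB being the genes added. None of the 31 was called in the same direction in all 4 lines, against 1.53% of all genes higher and 0.611% lower. Every tumour lay above every culture for 10 genes in Hep3B (26.8% of all genes), 9 in HepG2 (18.2%), 3 in HuH7 (25.5%) and 3 in PLC/PRF/5 (23.4%). Every tumour lay below every culture for 19 genes in HuH7 (23.0% of all genes), 17 in PLC/PRF/5 (16.1%), 10 in Hep3B (28.8%) and 5 in HepG2 (21.3%). In the mean of the 4 line differences, 5 genes rose (33.7% of all genes) and 16 fell (32.6%).

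**Figure D1:**
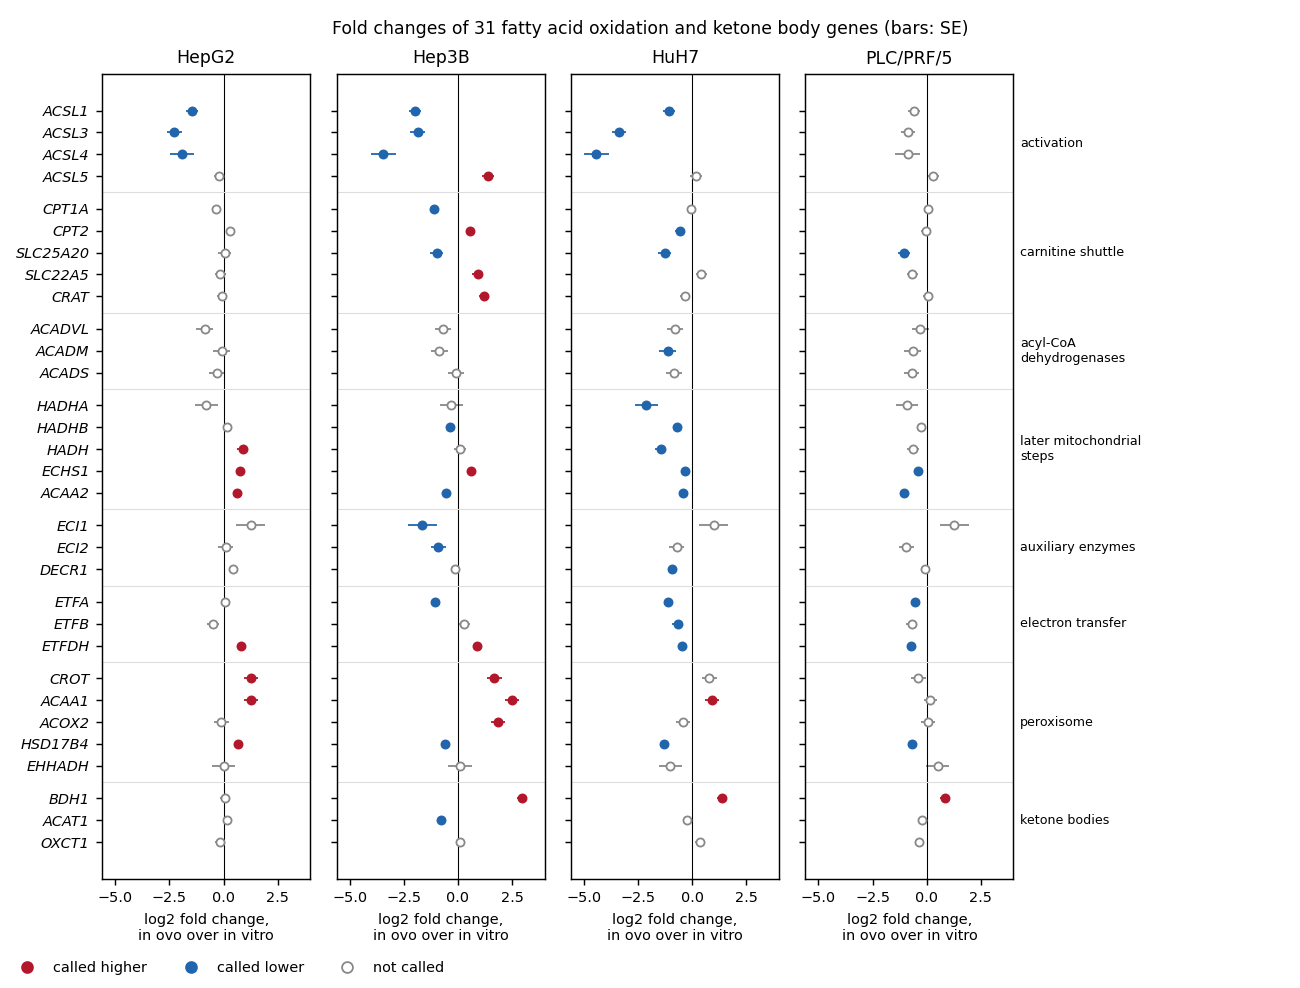
Log2 fold change in ovo over in vitro (x axis) of the 31 tested genes, grouped by role, in each of the 4 lines. Points are the fitted differences and bars their standard errors, with calls at limma's adjusted p under 0.05 in colour. The acyl-CoA synthetases ACSL3 and ACSL4 lie farthest to the left, down to -4.43 in HuH7, and BDH1 farthest to the right, at 2.96 in Hep3B.

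Among the acyl-CoA synthetases, which activate fatty acids by joining them to coenzyme A, ACSL1, ACSL3 and ACSL4 were lower in tumours than in cultures of HepG2, Hep3B and HuH7. ACSL4 prefers arachidonate and other polyunsaturated fatty acids, and ACSL3 resides on the endoplasmic reticulum and lipid droplets. The amplicons that read these 2 genes are shown because they carry the largest declines among the 31 genes. They come from the deposited table and were placed on GRCh38 by exact match to GENCODE 29 transcripts. Letters change between lower case and capitals at each exon boundary of the transcript.
ACSL3: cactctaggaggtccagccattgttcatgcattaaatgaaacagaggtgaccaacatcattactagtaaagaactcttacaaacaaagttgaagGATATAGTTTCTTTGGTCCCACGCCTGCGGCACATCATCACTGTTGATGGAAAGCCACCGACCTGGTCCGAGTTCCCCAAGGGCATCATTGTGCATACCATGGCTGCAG
ACSL4: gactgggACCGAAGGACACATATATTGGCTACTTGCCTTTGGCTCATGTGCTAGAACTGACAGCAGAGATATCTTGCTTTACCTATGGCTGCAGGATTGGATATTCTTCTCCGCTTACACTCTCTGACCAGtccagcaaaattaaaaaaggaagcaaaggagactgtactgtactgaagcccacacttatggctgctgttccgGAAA
The ACSL3 amplicon spans coding exons 6 to 7 on the plus strand (chr2:222918062-222919172), and the ACSL4 amplicon coding exons 8 to 11 on the minus strand (chrX:109669170-109678271). Neither matched a transcript of another gene.

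ACSL4 had 56.9, 43.5, 10.4 and 41.9 CPM in HepG2 tumours, against 141, 123 and 114 CPM in HepG2 cultures. In Hep3B it had 70.4, 17.4, 4.92 and 24.7 CPM in tumours, against 249, 217 and 224 CPM in cultures. In HuH7 it had 8.74, 4.2, 1.52 and 8.91 CPM in tumours, against 129.8, 125 and 128 CPM in cultures. In all 3 lines every tumour lay below every culture, and the tumour libraries numbered 3 were the lowest. PLC/PRF/5 had 30.4, 19.5, 26.8 and 21.5 CPM in tumours, against 43.2, 47.8 and 45.2 CPM in cultures, again with no overlap. The fitted log2 difference was -1.92 ± 0.57 (SE) in HepG2 (limma adjusted p = 0.014), -3.45 ± 0.57 in Hep3B (2.59e-05) and -4.43 ± 0.57 in HuH7 (1.19e-06). In HuH7 this was a 21.6-fold lower level on the log2(CPM + 1) scale. The PLC/PRF/5 value was -0.88 ± 0.57 and was not called (limma adjusted p = 0.319), but without the in ovo libraries numbered 3 it was (-0.93, limma adjusted p = 0.0302). The PLC/PRF/5 tumour left out, at 26.8 CPM, lay inside the range of its group, and the spread is shared with the other lines. The HepG2 call was lost without in ovo library 3 (-1.40, limma adjusted p = 0.0662) and without in vitro library 1 (-1.83, 0.056).

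ACSL3 had 46, 61, 45 and 58.1 CPM in HepG2 tumours, against 268, 260.0 and 239.5 CPM in HepG2 cultures. In HuH7 it had 44.1, 23.6, 11.5 and 27.2 CPM in tumours, against 256, 264 and 263 CPM in cultures. Hep3B tumours ranged from 50.7 to 231 CPM and Hep3B cultures from 407 to 410.0 CPM. The groups did not overlap in these lines, and every tumour was below every culture. On the log2 scale the change was -2.28 ± 0.34 in HepG2 (limma adjusted p = 1.72e-05), -1.86 ± 0.34 in Hep3B (0.000101) and -3.39 ± 0.34 in HuH7 (3.51e-08). PLC/PRF/5 had 55.1 ± 7.41 CPM in tumours and 101 ± 7.35 CPM in cultures (SD, n = 4 and n = 3), a difference of -0.86 ± 0.34 that missed the threshold (limma adjusted p = 0.085) and passed it without the in ovo libraries numbered 3 (-0.95, 0.00247). The difference of HuH7 was larger than the mean of the other lines for ACSL3 (-1.72 ± 0.40, limma adjusted p = 0.00226) and for ACSL4 (-2.35 ± 0.65, 0.0111). That of PLC/PRF/5 was smaller, by 1.65 for ACSL3 and 2.38 for ACSL4.

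ACSL1, the main long-chain synthetase of the liver, had low levels throughout. HepG2 tumours had 9.09, 5.76, 3.94 and 6.3 CPM, against 17.9, 18.6 and 17.7 CPM in HepG2 cultures, and Hep3B tumours had at most 8 reads. Its log2 fold change was -1.44 ± 0.28 in HepG2 (limma adjusted p = 0.00045), -2.0 ± 0.28 in Hep3B (3.87e-06) and -1.08 ± 0.28 in HuH7 (0.00401), with no overlap between tumours and cultures. Without the GC and length trend described below, the HuH7 value was -0.27 and not called. PLC/PRF/5 gave -0.59 ± 0.28 (limma adjusted p = 0.166). ACSL5, a synthetase found on mitochondria and the endoplasmic reticulum, was read mainly in HepG2, at 51.8 ± 13.9 CPM in tumours and 57.6 ± 4.84 CPM in cultures (SD, n = 4 and n = 3). In the other lines no library exceeded 3.47 CPM. Hep3B tumours had 3.19, 1.01, 0.777 and 3.47 CPM, against 3 reads in all over the 3 Hep3B cultures. The ratio of pooled reads was 19.2 (exact interval at the 95% level 6.22 to 96.2, counting error only), and the gene was called higher (limma adjusted p = 0.000194). With a constant of 5 CPM added before the logarithm, the mean over lines of ACSL5 was 0.10 and no longer called.

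**Figure D2:**
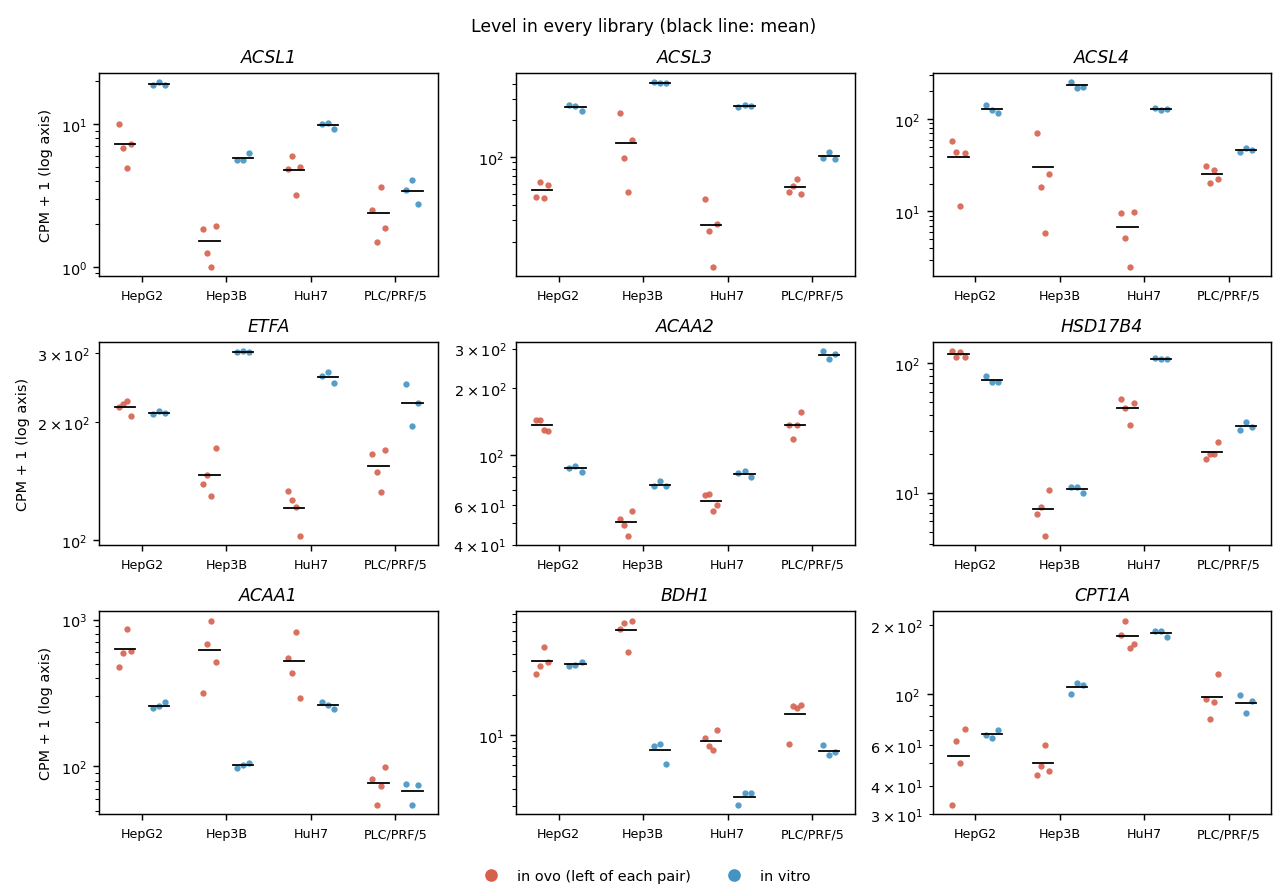
CPM + 1 (log axis) of 9 genes in every library, by line, with in ovo tumours left of in vitro cultures and the group mean as a black line. In HuH7 the tumours lie far below the cultures for ACSL3 and ACSL4, and in Hep3B the tumours lie above the cultures for ACAA1 and BDH1.

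Of the 5 carnitine shuttle genes, 3 rose (24.6% of all genes tested) and 2 fell (27.4%) in Hep3B, 2 fell in HuH7 (19.8%) and 1 in PLC/PRF/5 (5.61%), and 0 were called in HepG2. CPT1A, the rate-limiting outer membrane transferase that malonyl-CoA inhibits, had 43.5, 47.6, 59.3 and 45.3 CPM in Hep3B tumours, against 99.2, 111 and 108 CPM in Hep3B cultures. Every Hep3B tumour was below every culture, a log2 fold change of -1.11 ± 0.19 (limma adjusted p = 4.92e-05). The other lines gave -0.36 in HepG2, -0.06 in HuH7 and 0.07 in PLC/PRF/5, none called, and Hep3B differed from their mean by -0.99 ± 0.22 (limma adjusted p = 0.00163). CRAT, which moves acetyl groups between carnitine and coenzyme A, had 222, 218, 226 and 173 CPM in Hep3B tumours, against 91.6, 92.3 and 88.1 CPM in Hep3B cultures. All Hep3B tumours were above the cultures (1.19 ± 0.21, limma adjusted p = 5.6e-05). SLC22A5, the plasma membrane carnitine transporter, averaged 22.5 ± 3.82 CPM in Hep3B tumours and 11.3 ± 0.637 CPM in Hep3B cultures (SD, n = 4 and n = 3), and also rose (0.92 ± 0.25, limma adjusted p = 0.00404). Scaling by the total per library moved the median of all genes by a log2 value of -0.69 in Hep3B, -0.16 in HepG2, -0.14 in HuH7 and -0.14 in PLC/PRF/5. With that scaling, CRAT in Hep3B was at 0.22 and SLC22A5 at 0.00, and neither was called.

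CPT2, the inner membrane transferase that restores acyl-CoA, was called in opposite directions. Hep3B tumours had 81, 102, 107 and 79.1 CPM, against 55.9, 69.1 and 59.8 CPM in Hep3B cultures. HuH7 tumours had 67, 62.7, 80.4 and 37.3 CPM, against 91.9, 92.8 and 83.8 CPM in HuH7 cultures. The ranges did not overlap in either line, with tumours on the high side in Hep3B and on the low side in HuH7. The log2 fold change in Hep3B was 0.57 ± 0.21 (limma adjusted p = 0.0272). With the total per library it was -0.39 and called lower (limma adjusted p = 0.0168). Once the trend across all genes with amplicon GC content and length was removed, it was 0.06 and not called. In HuH7 the main fit gave -0.58 ± 0.21 (limma adjusted p = 0.031). Both calls of the main fit were lost in 4 of 28 fits that each left out 1 library. These were Hep3B in vitro 1 and 3 and in ovo 2 and 3, with values down to 0.50, and HuH7 in vitro 1, 2 and 3 and in ovo 4, with values up to -0.34. SLC25A20, the carnitine-acylcarnitine carrier, was near the limit of detection, with 0 to 18 reads in any tumour. PLC/PRF/5 tumours had 1.22, 1.51, 0.68 and 1.54 CPM, against 3.23, 4.2 and 3.3 CPM in PLC/PRF/5 cultures. It was called lower in Hep3B (-0.98), HuH7 (-1.28) and PLC/PRF/5 (-1.05), but without the GC and length trend it turned to 0.44 in Hep3B and was not called in HuH7 (-0.30). The PLC/PRF/5 call was lost without in vitro library 2 (-0.94, limma adjusted p = 0.0707). The gene passed the filter through 3 groups of cultures, which favours a lower call in tumours, and its calls rest on few reads. On the recovered reads edgeR did not call it in Hep3B (adjusted p = 0.0673) or PLC/PRF/5 (0.0873).

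Of the acyl-CoA dehydrogenases, which begin each round for very long, medium and short chains, ACADVL, ACADM and ACADS gave negative log2 values in all 4 lines. Only ACADM in HuH7 passed the test, with 2.96, 2.37, 0.506 and 4.11 CPM in tumours, against 5.97, 6.69 and 5.38 CPM in cultures. All HuH7 tumours lay below the cultures (-1.14 ± 0.39, limma adjusted p = 0.0213), and the lowest was library 3. That call was lost without in ovo library 3 (-0.78), without in vitro library 1 (-1.12) or 2 (-1.05), and without the GC and length trend (-0.44). In the mean over lines all 3 fell, as did 32.6% of all genes tested. The mean values were -0.67 ± 0.20 for ACADVL (limma adjusted p = 0.00471), -0.69 ± 0.19 for ACADM (0.00346) and -0.49 ± 0.18 for ACADS (0.0188). ACADM in the mean went to -0.12 without the GC and length trend and was then not called. ACADL, the long-chain dehydrogenase, was the gene that did not pass the filter, with at most 7 reads in a library.

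The mitochondrial steps after the first were lower in HuH7 and in part higher in HepG2. All 5 of HADHA, HADHB, HADH, ECHS1 and ACAA2 fell in HuH7 (19.8% of all genes tested), while HADH, ECHS1 and ACAA2 rose in HepG2 (12.1%). ACAA2, the thiolase that ends each round in mitochondria, and ETFA, a subunit of the flavoprotein that takes electrons from the dehydrogenases, are shown because each fell in 3 lines with groups that did not overlap.
ACAA2: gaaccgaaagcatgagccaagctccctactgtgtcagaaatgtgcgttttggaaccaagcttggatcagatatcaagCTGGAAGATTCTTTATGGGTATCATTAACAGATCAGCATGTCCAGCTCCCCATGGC
ETFA: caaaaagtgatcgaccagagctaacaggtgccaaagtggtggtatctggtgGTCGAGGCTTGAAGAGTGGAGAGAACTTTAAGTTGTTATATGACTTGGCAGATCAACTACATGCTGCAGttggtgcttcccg
The ACAA2 amplicon spans coding exons 4 to 5 (chr18:49794372-49795841) and the ETFA amplicon coding exons 7 to 9 (chr15:76274482-76285687), both on the minus strand, with case changing at each exon boundary. Their GC content was 46.6% for ACAA2 and 47.4% for ETFA.

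ACAA2 had 143, 144, 128 and 128 CPM in HepG2 tumours, against 86.9, 88.9 and 83.7 CPM in HepG2 cultures. PLC/PRF/5 had 136, 118, 135 and 155 CPM in tumours, against 290.3, 269 and 283 CPM in cultures. HepG2 tumours were all above and PLC/PRF/5 tumours all below their cultures. In the fit the log2 fold change was 0.64 ± 0.12 in HepG2 (limma adjusted p = 0.000198) and -1.05 ± 0.12 in PLC/PRF/5 (3.94e-07). With the total per library the HepG2 value was 0.41 and not called. Hep3B (-0.57 ± 0.12, limma adjusted p = 0.000353) and HuH7 (-0.41 ± 0.12, 0.0078) gave smaller declines, which shrank to -0.09 and -0.03 without the GC and length trend and were then not called. ACAA2 had the smallest interaction p of the 31 genes (limma F test, adjusted p = 1.04e-07). HepG2 stood 1.32 ± 0.14 above the mean difference of the other lines (limma adjusted p = 8.61e-08).

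ECHS1, the short-chain enoyl-CoA hydratase, averaged 216 ± 21 CPM in HepG2 tumours and 128 ± 5.46 CPM in HepG2 cultures (SD, n = 4 and n = 3), and it rose (0.75 ± 0.13, limma adjusted p = 9.57e-05). With the total per library that value was 0.51 and not called. It also rose in Hep3B (0.59 ± 0.13, 0.000616 by limma), where the total per library turned it to -0.39 and removal of the GC and length trend left 0.16. The declines in HuH7 (-0.33) and PLC/PRF/5 (-0.38) each lost their call in 16 of the 28 fits without 1 library, with values up to -0.28 in HuH7 and -0.32 in PLC/PRF/5. HADH, the 3-hydroxyacyl-CoA dehydrogenase for shorter chains, had 6.69, 6.99, 3.37 and 8.31 CPM in HuH7 tumours, against 19.8, 17.8 and 18.1 CPM in HuH7 cultures. HepG2 tumours had 30.8, 28.5, 12.2 and 27.5 CPM, against 12.4, 10.5 and 14 CPM in HepG2 cultures. The HuH7 groups were apart, with tumours lower, and in HepG2 tumour library 3 fell among the cultures. The log2 fold change was -1.47 ± 0.27 in HuH7 (limma adjusted p = 0.000126) and 0.88 ± 0.27 in HepG2 (0.0166), where the call was lost without in vitro library 2 (0.78, 0.0814) and with the total per library (0.66).

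HADHA and HADHB form the trifunctional protein that handles long chains in the inner membrane. In HuH7 HADHA had 12.2, 15.5, 2.19 and 19.8 CPM in tumours, against 48.6, 49.8 and 42.1 CPM in cultures. HADHB had 55.8, 58.4, 48.7 and 59.3 CPM in HuH7 tumours, against 94.2, 86.8 and 95 CPM in HuH7 cultures. Neither pair of groups overlapped, and HADHA in tumour library 3 was far below the other tumours. The log2 fold change in HuH7 was -2.12 ± 0.52 for HADHA (limma adjusted p = 0.00224) and -0.72 ± 0.15 for HADHB (0.000643). HADHB in HuH7 was at -0.32 and not called without the GC and length trend. HADHB also fell in Hep3B (-0.39 ± 0.15, limma adjusted p = 0.0374), but reversed to 0.32 without the GC and length trend. The Hep3B call of HADHB was lost without in ovo library 3 (-0.19, limma adjusted p = 0.181) and without in vitro library 1 (-0.40), 2 (-0.41) or 3 (-0.35). HADHA was not called in Hep3B (-0.31), HepG2 (-0.79) or PLC/PRF/5 (-0.91).

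The electron transfer genes pass electrons from the dehydrogenases to the respiratory chain. ETFA had 138, 146, 128 and 171 CPM in Hep3B tumours, against 300.1, 302 and 302 CPM in Hep3B cultures. In HuH7 it had 132, 126, 120.5 and 101 CPM in tumours, against 262, 267 and 251 CPM in cultures. Every tumour of both lines lay below every culture, and in HepG2 the groups overlapped (218 ± 8.36 CPM in tumours and 210.1 ± 1.54 CPM in cultures, SD, n = 4 and n = 3). The fitted log2 difference was -1.05 ± 0.13 in Hep3B (limma adjusted p = 4.37e-07), -1.12 ± 0.13 in HuH7 (2.43e-07) and -0.54 ± 0.13 in PLC/PRF/5 (0.00421), against 0.05 ± 0.13 in HepG2, not called. Without the GC and length trend the PLC/PRF/5 value was -0.43 and was not called. ETFDH, the membrane oxidoreductase that receives these electrons, rose in HepG2 (0.80 ± 0.19, limma adjusted p = 0.0027) and Hep3B (0.87 ± 0.19, 0.000621) and fell in HuH7 (-0.48) and PLC/PRF/5 (-0.71). With the total per library ETFDH was at 0.00 in Hep3B and 0.61 in HepG2, neither called.

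Hep3B tumours had 10.8, 11.8, 11.4 and 12 CPM of ETFDH, against 6.2, 4.77 and 6.68 CPM in Hep3B cultures, with no overlap. The ETFDH call in HuH7 was lost in 17 of the 28 fits without 1 library, with values up to -0.33, and without the GC and length trend (-0.35), and that in PLC/PRF/5 without in vitro library 2 (-0.60, limma adjusted p = 0.0846). ETFB, the partner subunit of ETFA, fell in HuH7 (-0.67 ± 0.26, limma adjusted p = 0.0448), with overlapping groups and a call lost in 21 of the 28 fits, up to -0.48. In HepG2 it averaged 144 ± 20.3 CPM in tumours and 202 ± 16.4 CPM in cultures (SD, n = 4 and n = 3) and was not called.

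The isomerases ECI1 and ECI2 and the reductase DECR1 prepare unsaturated chains for the spiral. DECR1 averaged 15.7 ± 4.03 CPM in HuH7 tumours and 29.9 ± 1.4 CPM in HuH7 cultures (SD, n = 4 and n = 3), with no overlap, and fell (-0.92 ± 0.18, limma adjusted p = 0.000224). In the other lines it was not called. ECI1 had 64, 8.31, 2.85 and 4.85 CPM in Hep3B tumours, against 30.3, 32.2 and 36.5 CPM in Hep3B cultures. Tumour library 1 was above all cultures and the other tumours were far below them. Its call in Hep3B (-1.65 ± 0.67, limma adjusted p = 0.0424) was lost in 6 of the 28 fits without 1 library, by leaving out any Hep3B culture or tumour 2, 3 or 4, with values up to -1.16. On the recovered reads the value was -0.67 by edgeR (adjusted p = 0.436) and -0.74 by DESeq2 (0.387), neither called. ECI2 fell in Hep3B (-0.91 ± 0.34, limma adjusted p = 0.0279) with at most 6 reads in a Hep3B tumour and 10 to 17 in a Hep3B culture, and turned to 0.36 without the GC and length trend. That call was lost without in ovo library 3 (-0.75) and without in vitro library 1 (-0.87) or 3 (-0.86). ECI2 passed the filter through 3 groups of cultures, which favours a lower call in tumours.

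Of the 5 peroxisomal genes, 3 rose in HepG2 (12.1% of all genes tested), 3 in Hep3B (24.6%) and 1 in HuH7 (23.6%). In Hep3B 1 fell (27.4% of all genes), as did 1 in HuH7 (19.8%) and 1 in PLC/PRF/5 (5.61%). ACAA1, the peroxisomal 3-ketoacyl-CoA thiolase, and BDH1, described with the ketone genes, are shown because they carry the largest rises among the 31 genes.
ACAA1: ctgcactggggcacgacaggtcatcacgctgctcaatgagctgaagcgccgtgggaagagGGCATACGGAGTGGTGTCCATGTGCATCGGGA
BDH1: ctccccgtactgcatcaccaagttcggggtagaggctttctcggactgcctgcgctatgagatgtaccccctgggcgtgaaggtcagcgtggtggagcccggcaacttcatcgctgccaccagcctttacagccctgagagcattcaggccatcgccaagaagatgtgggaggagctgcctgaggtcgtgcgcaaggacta
The ACAA1 amplicon spans coding exons 11 to 12 (chr3:38123091-38125624), with the later exon in capitals, and the BDH1 amplicon lies within coding exon 7 (chr3:197512112-197512312), both on the minus strand of GRCh38. Their GC content was 60.9% for ACAA1 and 60.2% for BDH1, against a median of 51.4% over the 31 amplicons.

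ACAA1 had 316, 687, 986 and 512 CPM in Hep3B tumours, against 96.3, 102 and 104 CPM in Hep3B cultures. In HepG2 it had 474, 592, 863 and 608 CPM in tumours, against 248, 257 and 272 CPM in cultures. In HuH7 it had 551, 432, 829.7 and 291 CPM in tumours, against 274, 261 and 247 CPM in cultures. All tumours of these 3 lines were above their cultures, and the tumour libraries numbered 3 were the highest. On the log2 scale the change was 2.5 ± 0.31 in Hep3B (limma adjusted p = 5.13e-07), 1.26 ± 0.31 in HepG2 (0.00353) and 0.91 ± 0.31 in HuH7 (0.0204). For PLC/PRF/5 it was 0.17 ± 0.31 (limma adjusted p = 0.788). The HuH7 call was lost without in ovo library 3 (0.66, limma adjusted p = 0.0912), without in vitro library 3 (0.89, 0.0538) and without the GC and length trend (0.23, 0.266).

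CROT, the carnitine octanoyltransferase that exports shortened chains from peroxisomes, had 8.09, 12.1, 20.2 and 14.6 CPM in Hep3B tumours, against 3.69, 3.82 and 2.78 CPM in Hep3B cultures. The groups were apart, at low levels. CROT rose in Hep3B (1.68 ± 0.34, limma adjusted p = 0.000263) and HepG2 (1.27 ± 0.34, 0.00656). Its amplicon lies in untranslated sequence of exon 18, whereas the other 31 amplicons are coding. Amplicons were matched only as whole, exact sequences. Whether reads of other, similar sequences enter the CROT signal was not tested. The HepG2 call was lost without in vitro library 1 (0.94, 0.08), and the Hep3B call with the total per library (0.81). ACOX2, the oxidase for branched chains and bile acid precursors, rose in Hep3B, with 14.7, 7.3, 4.14 and 12.9 CPM in tumours, against 1.85, 1.64 and 1.78 CPM in cultures (1.84 ± 0.33, limma adjusted p = 6.81e-05). All Hep3B tumours were above the cultures. Hep3B differed from the mean of the other lines by 1.99 ± 0.38 (limma adjusted p = 0.000312).

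HSD17B4, the peroxisomal multifunctional enzyme for branched and very long chains, fell in 3 lines and rose in HepG2. HuH7 tumours had 51.8, 43.8, 32 and 48.1 CPM, against 108, 107 and 106 CPM in HuH7 cultures. HepG2 tumours had 122, 111, 120.1 and 111 CPM, against 78.3, 70.3 and 71 CPM in HepG2 cultures. Tumours were lower than cultures in HuH7 and higher in HepG2, with no overlap in either. In the fit the log2 fold change was -1.29 ± 0.19 in HuH7 (limma adjusted p = 1.22e-05), -0.67 ± 0.19 in PLC/PRF/5 (0.0177), -0.58 ± 0.19 in Hep3B (0.0156) and 0.66 ± 0.19 in HepG2 (0.0138). The Hep3B groups overlapped. The call was lost in HepG2 without in vitro library 2 (0.63) or 3 (0.63) and with the total per library (0.42). In Hep3B it was lost without in vitro library 1 (-0.55) or 2 (-0.55), without in ovo library 3 (-0.37) and without the GC and length trend (-0.15). The PLC/PRF/5 call was lost without in vitro library 2 (-0.59) or 3 (-0.66) and without in ovo library 1 (-0.61). EHHADH, the bifunctional enzyme of the classical peroxisomal route, was not called in any line, with Hep3B tumours scattered from 0.777 to 16.1 CPM and Hep3B cultures between 4.62 and 5.01 CPM.

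Of the ketone body genes, BDH1, which interconverts acetoacetate and 3-hydroxybutyrate, rose in 3 lines. Hep3B tumours had 60.4, 67.7, 40.6 and 70.3 CPM, against 7.39, 7.64 and 5.12 CPM in Hep3B cultures. HuH7 tumours had 8.49, 7.32, 6.74 and 9.94 CPM, against 2.02, 2.74 and 2.75 CPM in HuH7 cultures. PLC/PRF/5 tumours had 7.6, 15.4, 15 and 15.8 CPM, against 7.53, 6.11 and 6.48 CPM in PLC/PRF/5 cultures. All tumours lay above the cultures in these lines, although PLC/PRF/5 tumour 1 was only just above them. The log2 fold change was 2.96 ± 0.23 in Hep3B (limma adjusted p = 2.95e-10), 1.37 ± 0.23 in HuH7 (5.01e-05) and 0.86 ± 0.23 in PLC/PRF/5 (0.0107). In HepG2 tumours and cultures overlapped (0.05 ± 0.23). Hep3B exceeded the mean of the other lines by 2.2 ± 0.27 (limma adjusted p = 9.41e-07). With the total per library the PLC/PRF/5 value was 0.66 and not called.

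ACAT1, the mitochondrial acetoacetyl-CoA thiolase that works in both making and using ketones, fell in Hep3B, with 16.3, 23.9, 34.4 and 21.7 CPM in tumours, against 38.7, 42 and 40.8 CPM in cultures (-0.77 ± 0.20, limma adjusted p = 0.00292). The groups did not overlap. OXCT1, the transferase that tissues other than liver use to burn ketones, was read mainly in PLC/PRF/5. It had 43, 61.9, 35.5 and 60.5 CPM in PLC/PRF/5 tumours, against 61.6, 56.6 and 69.6 CPM in PLC/PRF/5 cultures, and the groups overlapped (-0.34 ± 0.22, limma adjusted p = 0.324). In the other lines the highest value was 2.77 CPM, in a HepG2 tumour.

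The in ovo minus in vitro difference varied with the line for 22 of the 31 genes by limma's F test on the line by condition interaction, against 41.8% of all genes tested. ACAA2, CPT2, ECHS1, ETFDH, HADH and HSD17B4 were called in opposite directions in 2 lines, as were 8.87% of all genes. This held for 0 genes with the total per library, and without the in ovo libraries numbered 3 the count was 9, and that of genes varying with the line 26. The difference of HepG2 was above the mean of the other 3 lines for 9 genes (6.9% of all genes) and below it for BDH1 alone (13.4%). Those above were ACAA2, DECR1, ECHS1, ETFA, ETFDH, HADH, HADHB, HSD17B4 and SLC25A20, of which 7 act in mitochondrial oxidation itself. Hep3B was above the others for 11 genes (12.6% of all genes) and below for 5 (13.1%). HuH7 was above them for 0 genes (12.0% of all genes) and below for 11 (7.6%), and PLC/PRF/5 above for 2 (9.5%) and below for 6 (7.78%).

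The lines also differed in culture, for 24 of the 31 genes by limma's F test over the 4 lines in vitro, against 71.5% of all genes. OXCT1 and ACSL5 had the largest F, and ACAA2 was next. ACSL5 reached 10 reads in every library only in HepG2 groups, and OXCT1 only in PLC/PRF/5 groups and HepG2 cultures. Passing the filter through those lines favours a large F for both genes. In culture ACAA2 stood at 281 ± 10.7 CPM in PLC/PRF/5, above 86.5 ± 2.67 CPM in HepG2, 82 ± 2.22 CPM in HuH7 and 73.2 ± 2.17 CPM in Hep3B (SD, n = 3 each). HSD17B4 was highest in HuH7 cultures, at 107 ± 1.13 CPM, and lowest in Hep3B cultures, at 9.67 ± 0.668 CPM. ETFB was highest in HepG2 cultures, at 202 ± 16.4 CPM, and lowest in Hep3B cultures, at 33.9 ± 1.33 CPM. CROT, ACADVL, ACADM, ACADS, ECI1, ECI2 and ACAT1 were not called between lines in culture.

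Fold changes in these libraries moved with the base composition of the amplicon. Across all 13100 genes Spearman's rho between log2 fold change and amplicon GC content was 0.505 in HuH7, 0.458 in Hep3B, 0.389 in PLC/PRF/5 and 0.274 in HepG2. Across the 31 genes it was 0.667, 0.502, 0.458 and 0.117 in the same order of lines. These are descriptions across genes of shared libraries, and genes are not independent replicates. The 31 amplicons had a median GC content of 51.4% and a median length of 142 bases, against 55.6% and 137 bases over all genes tested. With the smooth trend on GC content and length removed from every library, the genes that rose and fell numbered 2 and 8 in PLC/PRF/5, 1 and 13 in HuH7, 9 and 7 in Hep3B, and 10 and 3 in HepG2. No share of all genes was computed for these counts. ACSL3 and ACSL4 in HepG2, Hep3B and HuH7 and BDH1 in Hep3B, HuH7 and PLC/PRF/5 kept their calls. Whether base composition has a part in any single fold change was not tested.

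**Figure D3:**
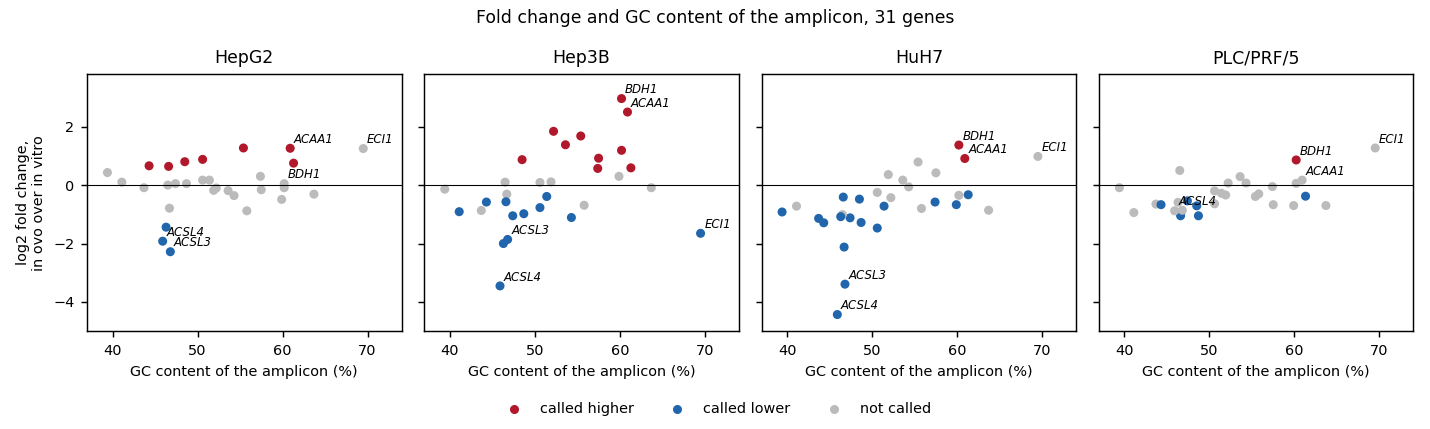
Log2 fold change in ovo over in vitro (y axis) against the GC content of the amplicon in percent (x axis) for the 31 genes, 1 panel per line, coloured by call. Low-GC genes such as ACSL4 at 45.9% tend to lie low, and rho was highest in HuH7, at 0.667. Among high-GC genes in HuH7, BDH1 at 60.2%, ACAA1 at 60.9% and ECI1 at 69.5% lie high. ECHS1 at 61.3%, CRAT at 60.2%, ETFB at 59.9% and ACADS at 63.7% have negative values there.

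Of 10 other ketone genes, 9 were tested, and 3 rose (24.6% of all genes tested) and 2 fell (27.4%) in Hep3B, 2 (12.1%) and 1 (13.0%) in HepG2, 2 (23.6%) and 5 (19.8%) in HuH7, and 0 (11.9%) and 0 (5.61%) for PLC/PRF/5. BDH2, a cytosolic dehydrogenase, rose in HepG2 (1.45), Hep3B (1.52, but 0.55 and not called with the total per library) and HuH7 (1.47), and OXCT2, a relative of OXCT1 known from testis, rose in HuH7 (3.13 ± 0.41, limma adjusted p = 2.04e-06). In Hep3B the OXCT2 groups overlapped and the rise (0.99) was lost in 21 of the 28 fits, down to 0.70. ACAT2, the cytosolic thiolase that feeds cholesterol synthesis, fell in HuH7 (-3.27 ± 0.30, 6.08e-09 by limma). The monocarboxylate carriers SLC16A1 and SLC16A7, which move lactate and ketone bodies across membranes, fell in Hep3B (-2.14 for SLC16A1 and -1.99 for SLC16A7) and HuH7 (-2.32 and -1.45). SLC16A7 in HuH7 was not called without the GC and length trend (-0.63). SLC16A6, the carrier linked to export of 3-hydroxybutyrate from liver in zebrafish, had no read in HepG2 tumours, against 2.12, 2.59 and 2.34 CPM in HepG2 cultures. Its level was thus at least 4.74-fold lower in HepG2 tumours, with 3 reads per library as the floor.

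A further list of 35 genes of fatty acid uptake, transport and oxidation had 30 tested members, of which 10 rose (24.6% of all genes tested) and 5 fell (27.4%) in Hep3B, 4 (12.1%) and 3 (13.0%) in HepG2, 2 (23.6%) and 9 (19.8%) in HuH7, and 3 (11.9%) and 4 (5.61%) for PLC/PRF/5. ACACB, the acetyl-CoA carboxylase whose malonyl-CoA inhibits CPT1, was the gene of the further lists called in the same direction in all 4 lines. It had 47.7, 43.5, 53.2 and 48.1 CPM in HepG2 tumours, against 18.8, 16.9 and 18.1 CPM in HepG2 cultures. Hep3B tumours had 23.2, 30.7, 33.1 and 31.4 CPM, against 5.41, 5.46 and 4.12 CPM in Hep3B cultures. In every line all tumours were above all cultures. The fitted log2 difference was 1.37 ± 0.15 in HepG2 (limma adjusted p = 2.37e-07), 2.35 ± 0.15 in Hep3B (1.17e-11), 0.44 ± 0.15 in PLC/PRF/5 (0.0494) and 1.16 ± 0.15 in HuH7 (2.03e-06). The PLC/PRF/5 call was lost in 17 of the 28 fits without 1 library, with values of 0.42 to 0.51, and with the total per library (0.24).

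ABCD3, a transporter that brings fatty acids into peroxisomes, fell in Hep3B (-1.28 ± 0.23, limma adjusted p = 6.78e-05), HuH7 (-1.65 ± 0.23, 3.47e-06) and PLC/PRF/5 (-0.65 ± 0.23, 0.0495). The PLC/PRF/5 call of ABCD3 was lost in 21 of the 28 fits, up to -0.59, and without the GC and length trend (-0.36). SLC27A5, a liver acyl-CoA synthetase for bile acids and fatty acids, rose in Hep3B (2.32 ± 0.28, 3.02e-07 by limma). ACOT2, a mitochondrial thioesterase, fell in HuH7 (-1.21), a call lost in 9 of the 28 fits, up to -0.83. HACL1, which shortens branched chains by 1 carbon in peroxisomes, fell in HuH7 (-1.27) and in Hep3B (-1.16), and the Hep3B value was -0.37 and not called without the GC and length trend. HACL1 reached 10 reads in every library only in groups of cultures, which favours a lower call in tumours. Neither HACL1 call held with edgeR on the recovered reads (adjusted p = 0.0851 in HuH7 and 0.0738 in Hep3B), that in Hep3B was lost without in vitro library 1 (-0.98), and that in HuH7 with DESeq2 (adjusted p = 0.0643). ACAD10, a less studied dehydrogenase, rose in Hep3B (1.04), HuH7 (0.50) and PLC/PRF/5 (0.85), but with the total per library it was 0.11 in Hep3B and 0.26 in HuH7, neither called. In HuH7 the ACAD10 call was also lost without in vitro library 1 (0.51) or 2 (0.48) and without in ovo library 2 (0.39).

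FABP1, the liver fatty acid binding protein, had 1060, 2297, 2431 and 3424 CPM in Hep3B tumours, against 86.2, 93.8 and 97.4 CPM in Hep3B cultures. PLC/PRF/5 tumours had 5.37, 9.41, 4.65 and 14.6 CPM, against no read in PLC/PRF/5 cultures, so their level was at least 27.4-fold higher with 3 reads per library as the floor. Every tumour of these 2 lines was above every culture, and FABP1 in Hep3B gave 4.51 ± 0.34 (limma adjusted p = 1.35e-10). In HepG2 it was 0.63 ± 0.34 and was called without the in ovo libraries numbered 3 (0.94, limma adjusted p = 0.0143). CD36, a fatty acid receptor and carrier, had 42.1, 43.2, 45 and 48.2 CPM in HepG2 tumours, against 8.46, 7.89 and 7.67 CPM in HepG2 cultures. PLC/PRF/5 had 2.94, 1.43, 2.83 and 1.87 CPM in tumours, against 8.81, 8.21 and 8.25 CPM in cultures. CD36 thus lay above the cultures in HepG2 (2.34 ± 0.19, limma adjusted p = 8.29e-10) and below them in PLC/PRF/5 (-1.56 ± 0.19, 1.13e-06).

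Among 19 regulators, all tested, 8 rose (24.6% of all genes tested) and 4 fell (27.4%) in Hep3B, 3 (12.1%) and 4 (13.0%) in HepG2, 4 (23.6%) and 2 (19.8%) in HuH7, and 6 (11.9%) and 2 (5.61%) for PLC/PRF/5. PPARA, which encodes PPAR-alpha, had 114, 107, 100.2 and 97.5 CPM in Hep3B tumours, against 10.2, 10.1 and 10.2 CPM in Hep3B cultures. PLC/PRF/5 had 18.6, 17.7, 24.1 and 24.6 CPM in tumours, against 10.6, 11 and 8.95 CPM in cultures. Tumours were above cultures in both lines and in HepG2, and they overlapped in HuH7. On the log2 scale the change was 3.24 ± 0.20 in Hep3B (limma adjusted p = 3.78e-12), 0.99 ± 0.20 in PLC/PRF/5 (0.000912), 0.73 ± 0.20 in HepG2 (0.00855) and 0.48 ± 0.20 in HuH7 (0.053). PPARGC1A, the coactivator PGC-1alpha, had 24.8, 36.6, 32.3 and 35 CPM in PLC/PRF/5 tumours, against 7.04, 8.59 and 7.3 CPM in PLC/PRF/5 cultures. HepG2 had 18.6, 18.2, 16 and 21.2 CPM in tumours, against 46.8, 44.5 and 42.2 CPM in cultures. The groups were apart in both lines, in opposite directions: PPARGC1A rose in PLC/PRF/5 (1.93 ± 0.19, limma adjusted p = 3.26e-08) and HuH7 (0.70 ± 0.19, 0.00448) and fell in HepG2 (-1.23 ± 0.19, 2.07e-05). With the total per library PPARGC1A in HuH7 was 0.48 and not called.

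CREB3L3, a liver factor that acts with PPAR-alpha on fasting genes, rose in Hep3B (4.44 ± 0.43, limma adjusted p = 1.36e-08) and HepG2 (2.27 ± 0.43, 0.000296). PPARD, the broadly expressed receptor of the family, rose in Hep3B (2.72), HuH7 (0.93) and PLC/PRF/5 (0.94), and in HuH7 went to 0.26, not called, without the GC and length trend. PPARG, better known from fat tissue, fell in PLC/PRF/5 (-1.6), HepG2 (-0.71) and HuH7 (-0.69), and without that trend it was -0.31 in HepG2 and -0.05 in HuH7, neither called. The PPARG call was lost in 6 of the 28 fits in HepG2, up to -0.61, and in 5 in HuH7, up to -0.57. HNF4A, a master factor of hepatocytes, rose in PLC/PRF/5 (2.86 ± 0.31, limma adjusted p = 1.88e-07) and Hep3B (1.28 ± 0.31, 0.00136), where the total per library left 0.30, not called. RXRA, the partner of PPAR-alpha, rose in Hep3B (0.83 ± 0.25, limma adjusted p = 0.00721) but turned to -0.15 with the total per library and to -0.23 without the GC and length trend. SIRT3, a mitochondrial deacetylase, rose in Hep3B (1.85), HuH7 (1.13) and HepG2 (0.94). The SIRT3 call was lost in HepG2 in 5 of the 28 fits, down to 0.67, and in HuH7 without the GC and length trend (0.27). TFAM, which maintains mitochondrial DNA, fell in HuH7 (-0.86) and Hep3B (-0.86).

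**Figure D4:**
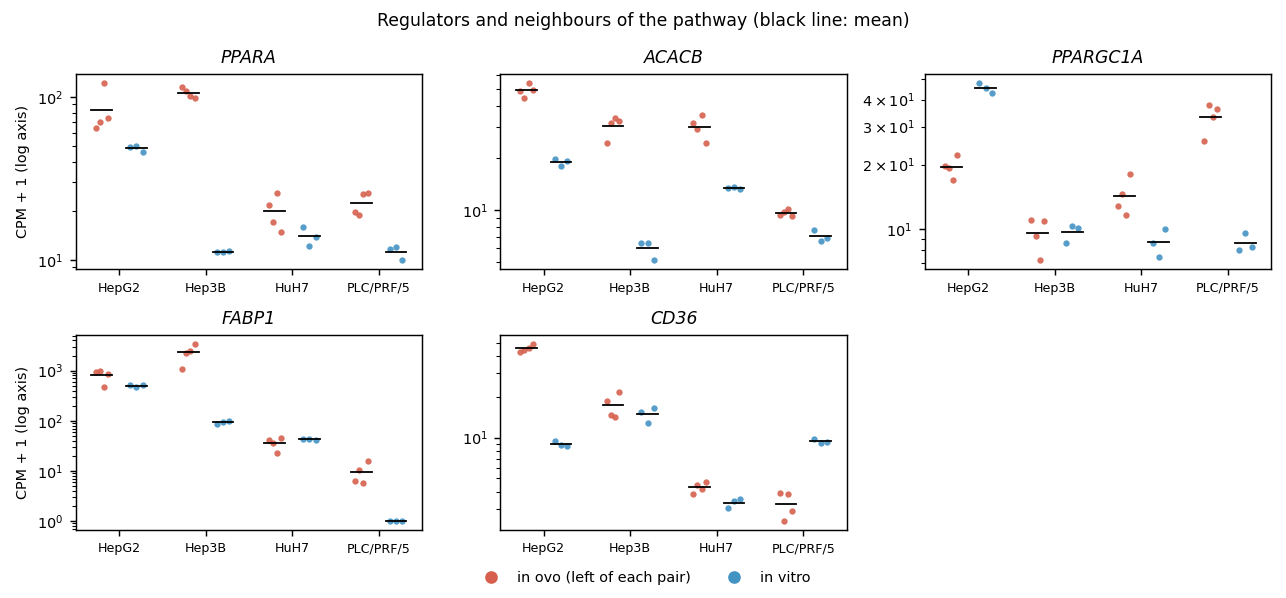
CPM + 1 (log axis) of 5 genes outside the 32 in every library, by line, with in ovo tumours left of in vitro cultures and the group mean as a black line. PPARA in Hep3B tumours sits between 97.5 and 114 CPM, above 10.1 to 10.2 CPM in the cultures, and PPARGC1A lies above the cultures in PLC/PRF/5 and below them in HepG2.

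Of 14 genes known as PPAR targets or linked to lipid fuel use, 10 were tested, and 4 rose (24.6% of all genes tested) and 2 fell (27.4%) in Hep3B, 2 (12.1%) and 2 (13.0%) in HepG2, 3 (23.6%) and 3 (19.8%) in HuH7, and 2 (11.9%) and 1 (5.61%) for PLC/PRF/5. PDK4, a classical target that spares glucose, was not called in any line and did not exceed 24 reads in a library. ANGPTL4, a lipoprotein lipase inhibitor and target, rose in HuH7, with 28, 25, 21.6 and 19.7 CPM in tumours, against 7.39, 9.76 and 8.57 CPM in cultures. All HuH7 tumours were above the cultures (1.36 ± 0.28, limma adjusted p = 0.000462). It fell in HepG2 (-1.72 ± 0.28, 4.66e-05 by limma). PLIN2, a coat protein of lipid droplets, had 6.69, 5.63, 10.1 and 17.2 CPM in PLC/PRF/5 tumours, against 6 reads in all over the PLC/PRF/5 cultures, a ratio of pooled reads of 46.5 (exact interval at the 95% level 21.1 to 127, counting error only). FGF21, a fasting hormone of the liver, fell in PLC/PRF/5 (-2.13 ± 0.24, limma adjusted p = 4.05e-07). FGF21 reached 10 reads in every library only in PLC/PRF/5 cultures, at 44 to 55 reads. Passing the filter through that group favours a lower call in PLC/PRF/5 tumours. In Hep3B it fell at 0 to 3 reads in a tumour (-0.61), a call lost in 5 of the 28 fits, up to -0.51.

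TXNIP, a fuel-sensing inhibitor of thioredoxin, rose in HepG2 (1.99), Hep3B (1.99) and HuH7 (0.79), the HuH7 call lost in 16 of the 28 fits, down to 0.69. CIDEC, a lipid droplet protein, rose in Hep3B, where cultures held 2 reads in all (ratio of pooled reads 35.5, exact interval at the 95% level 9.43 to 299), and fell in HepG2 (-2.28) and HuH7 (-0.97). FABP3, a fatty acid binding protein of muscle, rose in HuH7 (1.38) and Hep3B (0.71), though with the total per library the Hep3B value was -0.07. The Hep3B call of FABP3 was lost without in ovo library 3 (0.53) and without in vitro library 1 (0.67) or 2 (0.71). HILPDA, an inhibitor of droplet lipolysis, rose in PLC/PRF/5 (1.25, not called by edgeR, adjusted p = 0.0534) and fell in Hep3B (-1.12), where it was -0.14 and not called without the GC and length trend. UCP2, an uncoupling protein of the mitochondrial membrane, rose in Hep3B, with 34 reads in all over the tumours against 1 over the cultures (ratio 37.7, exact interval 6.33 to 1530), a call lost with the total per library (0.82). In HuH7 UCP2 fell (-1.01), a call lost in 23 of the 28 fits, up to -0.50. ACOT12, an acetyl-CoA hydrolase, fell in HuH7 (-2.23 ± 0.19, limma adjusted p = 1.28e-09). In HepG2 it rose, with 24 reads in all over the tumours against 1 over the cultures (ratio 23.7, exact interval 3.86 to 973).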

How the data were processed

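DriverMap libraries, which count targeted amplicons of human transcripts, were made from 500 ng of total RNA of 16 tumours and 12 cultures. The deposited values are a signal per amplicon that the authors scaled to a total of 500000 per library, although the study calls them counts. The build was hg38, per the submitters' processing notes; the aligner and the counting were not given in the sources used here. Values were doubled to CPM. Low deposited values rose in equal steps, and at least 99.9684% of the values of a library were within 0.01 of a whole read, so whole reads were recovered. In PLC/PRF/5 in ovo library 2 the cell of KRT18 is damaged. Its value was filled in as what the other amplicons left of the total of 500000.

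TMM factors (edgeR 4.0.16, R 4.3.3) were computed over all genes, and filterByExpr, with a minimum of 10 reads, kept 13100 genes and left out 5861. A limma 3.58.1 trend fit on log2(CPM + 1) with 8 groups and 20 residual degrees of freedom gave in ovo minus in vitro differences per line, their mean, the interaction and line differences in vitro. Fold changes are on that scale, which understates the change of low genes. Benjamini-Hochberg adjustment ran over all genes tested, with a threshold of 0.05. The main test had been planned for scaled values, and edgeR's quasi-likelihood test and DESeq2 1.42.0 on the recovered reads were alternatives. The others were DESeq2 size factors, the total per library alone, other filters and pseudocounts (0.25 and 5 CPM), the replicate block, removal of the GC and length trend, each line alone, the 20 most abundant genes left out, and leaving out the in ovo libraries numbered 3 or each library. The scripts were tested on simulated data.

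No label says that replicate numbers pair the samples. The correlation of deviations of same-numbered libraries was -0.0955 to 0.457, which does not settle whether they do. All 32 genes are described. Of 4 further lists, the text gives counts and names the genes called in the same direction in all 4 lines, the 3 called genes of each list with the largest change in each line, and 10 set by name, except for results that are not reported here. The members and lists were chosen with earlier results of these data known. Intervals and floors cover counting error only, since reads without molecular identifiers are not independent molecules. No genome sequence was used here, and amplicon positions are those of the matched GENCODE 29 transcripts on GRCh38.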

Additional observations from a re-analysis of the deposited data

Results flagged for a closer look

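In 9 of 124 groups of 4 tumours, 1 library stood apart from the others by Dixon's test at the 95% level, and chance flags about 1 in 20 groups. Of HepG2, in ovo library 3 was high for CPT2 (74.9 CPM), ETFDH (7.89 CPM) and ACAT1 (77.9 CPM) and low for ACADS (10.8 CPM). In PLC/PRF/5, in ovo library 4 was high for CPT2 (70.9 CPM) and ACAT1 (44.6 CPM), and in ovo library 1 was low for BDH1 (7.6 CPM). In Hep3B, in ovo library 4 was low for CRAT (172.9 CPM) and in ovo library 1 was high for ECI1 (64.0 CPM).

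The in ovo minus in vitro difference varied between lines for 22 genes, by limma's F test on the interaction with Benjamini-Hochberg adjustment over all genes. Among synthetases the limma adjusted p was 0.0346 for ACSL1, 0.00142 for ACSL3, 0.00348 for ACSL4 and 0.00943 for ACSL5. In the carnitine shuttle it was 0.00405 for CPT1A, 0.0159 for CPT2, 0.0397 for SLC25A20, 0.00423 for SLC22A5 and 0.000697 for CRAT. In mitochondrial oxidation the limma adjusted p was 0.0139 for HADHB, 0.000125 for HADH, 7.4e-06 for ECHS1, 1.04e-07 for ACAA2, 0.0335 for ECI1 and 0.001 for DECR1. For electron transfer it was 2.55e-05 for ETFA and 1.71e-05 for ETFDH. In the peroxisome the limma adjusted p was 0.00578 for CROT, 0.000976 for ACAA1, 0.00118 for ACOX2 and 2.85e-05 for HSD17B4, and among ketone genes it was 8.44e-07 for BDH1.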

How the results depend on the processing

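With 1 library left out, the genes that rose and fell numbered 9 to 10 and 8 to 13 in Hep3B, 5 to 8 and 2 to 4 in HepG2, 1 to 3 and 11 to 18 in HuH7, and 1 to 1 and 2 to 10 in PLC/PRF/5. The lowest PLC/PRF/5 count of lower genes, 2, came without in vitro library 2 and the highest, 10, without HuH7 in ovo library 3. In the mean they were 4 to 7 and 15 to 17, where ECHS1 lost its call in 6 fits and ACAT1 in 2. The interaction gave 19 to 24 genes and the line differences in vitro 23 to 26. With the total per library, 2 genes rose in HepG2, 4 in Hep3B, 0 in PLC/PRF/5 and 3 in the mean. Without the GC and length trend, 7 fell in Hep3B, 1 rose in HuH7 and 2 rose in PLC/PRF/5. Without the in ovo libraries numbered 3, 4 rose in HuH7, 15 fell in PLC/PRF/5 and 8 rose in the mean. With each line fitted alone, 1 rose in HuH7 and 15 fell in PLC/PRF/5. DESeq2 size factors gave 12 lower genes in PLC/PRF/5, and the DESeq2 Wald test 13. The share of all genes called under each of these settings was not computed. The replicate block gave 11 lower genes in PLC/PRF/5 and moved no other count of the 31 genes by over 1.5 times, but no label says that the numbers pair the samples. edgeR's test on the recovered reads gave 10 higher and 9 lower genes in Hep3B, 7 and 3 in HepG2, 2 and 13 in HuH7, and 1 and 5 in PLC/PRF/5. It did not call SLC25A20, HADHB and ECI1 in Hep3B, ECHS1, ETFB and ETFDH in HuH7, or SLC25A20 and ECHS1 in PLC/PRF/5. With each line fitted alone, the calls lost included CROT, HADH, ACSL4, PPARA, BDH2 and SIRT3 in HepG2, HADHB, ECI1, HSD17B4 and FABP3 in Hep3B, CPT2, ACADM, ETFB, ETFDH, ACAA1, PPARGC1A, SIRT3 and HACL1 in HuH7, and BDH1 in PLC/PRF/5.

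Reversals in Hep3B under the total per library were -0.39 for CPT2, -0.39 for ECHS1, -0.93 for ACAT2, -0.70 for CD36, -0.15 for RXRA, -0.071 for FABP3 and -0.43 for ACOT12. In Hep3B without the GC and length trend they were 0.44 for SLC25A20, 0.32 for HADHB, 0.36 for ECI2, 1.02 for SLC16A6, -0.23 for RXRA and 0.80 for PDK4. PDK4 had at most 3 reads in a Hep3B tumour. In HuH7 without that trend they were 1.00 for SLC16A6, -0.73 for SLC27A5 and -0.68 for RXRA. SLC16A6 had no read in any HuH7 library, so its 1.00 is the removed trend alone and no change in reads. SLC27A5 had at most 3 reads in a HuH7 library. In the mean under the total per library they were -0.36 for CPT2, -0.27 for ECHS1, -0.056 for CD36 and -0.028 for PPARGC1A. In the mean without the trend they were -0.24 for CPT2, 0.016 for SLC25A20, 0.061 for HADHB, -0.15 for ECHS1, 0.16 for ECI2, 0.74 for EHHADH, 0.31 for SLC16A6, -0.21 for RXRA, 0.66 for PDK4 and 0.35 for HILPDA. ACOT12 in the mean was 0.86 with edgeR and 0.77 with DESeq2. Apart from SLC16A6 in HuH7, the cause of these changes was not tested. Over single genes, 12359 results kept their side of the threshold, and those called kept their direction. Direction was not compared where neither fit called the gene. A call was gained in 221 results and lost in 404, and 32 were the reversals listed above. DESeq2's Wald test was not run for the joint tests over lines, and each line alone gives only line contrasts. Genes of few reads, such as SLC25A20, ECI2 and ACSL5 outside HepG2, are limited by depth.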
